A study of Arabidopsis thaliana with 2 samples.

Results

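The transcripts described here are AT3G22240, AT5G52760, AT3G23550 and GRX480, 4 of the 9062 Arabidopsis thaliana genes that a probe set named singly in these data. They were chosen by locus, as genes linked to defence whose value was lower in the double knockout than in the wild type, and each is measured by 1 probe set that names that gene alone. The study hybridised RNA from rosette leaves to 2 Affymetrix arrays, 1 for the KO-HsfA1d/A1e mutant and 1 for the wild type, each labelled biological replicate 1. HsfA1d and HsfA1e are heat shock factors of class A1, regulators that activate chaperone genes when proteins unfold. The mutant lacks both factors and the wild type carries both; the labels give the strain Columbia for both genotypes and name no insertion allele or line. Both genotypes were grown on MS medium under 100 µE m-2 s-1 of light, in days of 16 h at 25°C and nights of 8 h at 22°C. At an age of 2 weeks they were given 30 min of 400 µE m-2 s-1 at 25°C. No plants kept at growth light were analysed here, so each value is a level after high light and not a response to it.

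GRX480, AT3G23550 and AT5G52760 belong to different families. GRX480, also called ROXY19, is a glutaredoxin, a small enzyme that reduces disulfides with glutathione. It belongs to the CC type, a plant class named for the paired cysteines of its active site, and it is known to bind TGA transcription factors and to be induced by salicylate, the hormone of resistance to biotrophic pathogens. AT3G23550 encodes a carrier of the MATE family, membrane proteins that export organic compounds from the cytosol or into the vacuole in exchange for cations. AT5G52760 encodes a protein with a heavy-metal-associated domain, a small fold best known from copper chaperones and metal pumps and known in rice also as a target of effector proteins of the blast fungus. The tables used here give AT3G22240 no function, so its link to defence was not assessed.

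Arrays of the 2 genotypes were close in scale, with a median intensity of 331.9 in the mutant and 334.1 in the wild type over 16541 probe sets. Differences were taken on log2(intensity + 16), as KO-HsfA1d/A1e minus wild type, and every count at 2-fold refers to a log2 difference of 1 or more on this scale. The fold of a gene is given as the wild-type over the mutant intensity with nothing added, so for a dim gene it is larger than the log2 difference implies. The median difference of the singly named genes was 0.04, and 44.6% of them had the lower value in the mutant. Each genotype has 1 array, so no replicate error could be estimated and no test was made, and every difference below was also part of the choice of these genes. HsfA1d and HsfA1e were not among the singly named genes, so the genotype labels could not be checked on the targeted genes. Of 15 leaf marker genes listed, 4 were measured, RCA and 3 genes of the LHCB4 group, with a summed intensity of 51843 in the mutant and 50161 in the wild type. Among markers of other tissues, 1 of 8 root genes was measured, PYK10, with an intensity of 3758 in the mutant and 2555 in the wild type. The 2 measured of 5 guard cell genes summed to 4032 in the mutant and 4620 in the wild type, and 0 of 5 vascular and 0 of 7 seed and flower genes were measured. None of the measured markers was at 0, and the part of these tissues in the results was not tested.

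AT3G22240 was by far the most different of the 4 transcripts. Its intensity was 366.2 on the mutant array and 10759 on the wild-type array. The mutant value was 3.40% of the wild-type value, a difference of -4.82 log2 units or 29.4-fold. Among all 16541 probe sets only 2 had a lower difference, and among the singly named genes AT3G22240 was the lowest. As whole leaves were used, fewer cells that express a transcript and less of it per cell cannot be told apart, here and for the other genes.

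AT5G52760, the heavy-metal-associated domain gene, had an intensity of 162.7 in the mutant and 673.1 in the wild type. The mutant kept 24.2% of the wild-type value, a difference of -1.95 or 4.14-fold. It ranked 33rd from the lowest among the singly named genes, by the difference that also chose it. An expression filter kept the brighter probe sets, those with a mean log2 value of 8.44 (the median over all probe sets) or more. The mean of AT5G52760, 8.46, was just above that limit, and it passed only through the wild type, with a log2 value of 7.48 in the mutant and 9.43 in the wild type.

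AT3G23550, the MATE carrier, had an intensity of 217.2 in the mutant and 831.3 in the wild type. The mutant kept 26.1% of the wild-type value, a difference of -1.86 or 3.83-fold. Its log2 value was 7.87 in the mutant and 9.73 in the wild type, so it too passed the expression filter only through the wild type. Its difference stood next to that of AT5G52760, with a gap of 0.09 log2 units.

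GRX480 was measured near the low end of the intensity range. Its intensity was 42.7 in the mutant and 172.7 in the wild type, and the mutant kept 24.7% of the wild-type value, a difference of -1.68 or 4.05-fold. It was the only gene of the 4 under the expression filter, with a mean log2 value of 6.72. Its mutant intensity was close to 31.9, the limit of the lowest 5% of probe sets on that array. The files carry no detection call, so whether the mutant value lay above background could not be decided, and the fold depends on how the lowest intensities are treated.

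**Figure D1:**
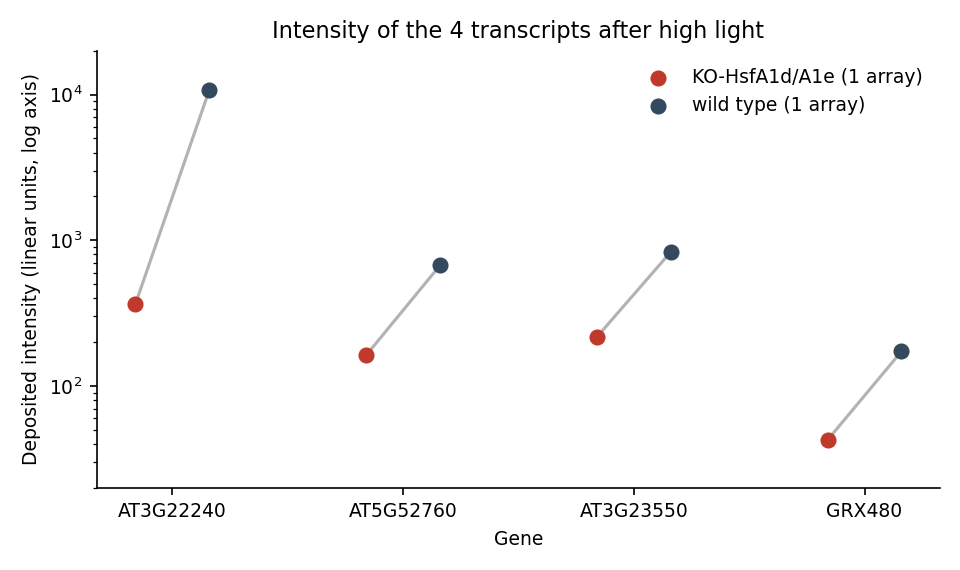
Deposited intensity of each transcript (vertical log axis, linear intensity units) on the KO-HsfA1d/A1e array and, to its right, the wild-type array, 1 point per array with no error bars because each genotype has 1 array. AT3G22240 drops to 366.2 in the mutant against 10759 in the wild type, while the other 3 genes each keep between 24.2% and 26.1% of the wild-type value.

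AT3G22240 stood apart from the other 3 transcripts, whose differences were close to each other. The differences of AT5G52760, AT3G23550 and GRX480 lay within 0.26 log2 units of each other, whereas the gap between AT3G22240 and AT5G52760, the next lowest, was 2.87. For scale, genes with more than 1 probe set past the filter, 13 in all, gave an SD of 0.20 log2 units between the differences of the same gene, and the 31 such genes under the filter gave an SD of 0.40. These figures describe scatter between probe sets of the same arrays and leave out the spread between plants. The gap of 0.09 between AT5G52760 and AT3G23550 was under this scatter, and the gaps of GRX480 to those genes, 0.26 and 0.18, were under the scatter of dim probe sets. With 64 added in place of 16, the gaps of GRX480 to AT5G52760 and AT3G23550 were 0.55 and 0.52. The closeness of GRX480 to these genes thus depends on the added constant. The scatter was computed only with 16 added, so whether these wider gaps exceed it was not tested.

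All 4 differences were beyond 2-fold on the lower side, and the choice of the genes fixes that count. The same held for 2.28% of all probe sets, while 0.768% were at least 2-fold higher. Past the expression filter, 1.38% of probe sets were at least 2-fold lower and 0.121% at least 2-fold higher. Under it, where GRX480 lies, 3.18% were lower and 1.41% higher by as much, so the share beyond 2-fold was larger among dim probe sets in both directions. Dividing all probe sets into 20 groups of equal size by mean brightness gave the spread at the level of each gene. In the group of GRX480, the central 95% of differences ran from -1.22 to 0.81. The range was from -0.72 to 0.52 in that of AT3G22240, from -0.66 to 0.54 in that of AT5G52760 and from -0.71 to 0.54 in that of AT3G23550. These ranges show the spread at each brightness and do not test the 4 genes, which were chosen for their low differences.

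**Figure D2:**
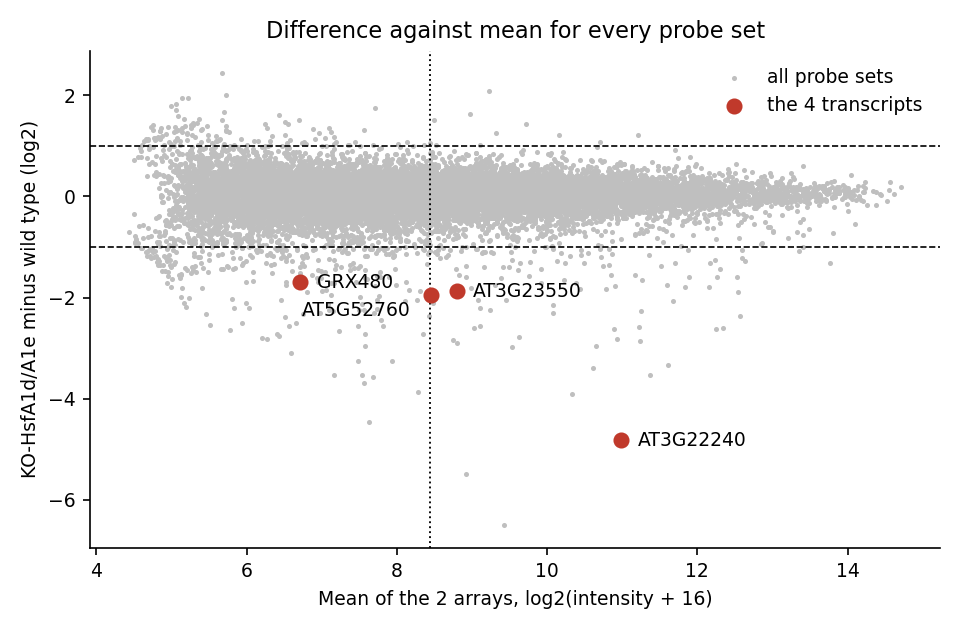
Difference between KO-HsfA1d/A1e and wild type (vertical axis, log2 units) against the mean of both arrays (horizontal axis, log2(intensity + 16)) for all 16541 probe sets in grey and the 4 transcripts in red. Dashed lines mark 2-fold and the dotted line marks the expression filter at 8.44; AT3G22240 lies at -4.82, and GRX480 lies left of the filter, where the grey cloud is wider.

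AT3G22240 and AT3G23550 are on chromosome 3, AT5G52760 is on chromosome 5 and GRX480 is on chromosome 1. In the gene order of the TAIR10.1 annotation, 40 genes lie within 5 places of one of them, and 9 of these were measured. Their differences ran from -0.20 to 0.11, so 0 of the 9 reached 2-fold in either direction. Among singly named genes, 2.06% were at least 2-fold lower and 0.817% at least 2-fold higher, so a count of 0 among 9 genes is near this background and says nothing particular of these places.

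Next to AT5G52760, the gene on one side, AT5G52750, had 480.6 in the mutant and 555.8 in the wild type, a difference of -0.20. AT5G52740, 2 places away, was dim, with 26.1 in the mutant and 28.3 in the wild type (-0.07), and AT5G52780 on the other side had 1461 in the mutant and 1553 in the wild type (-0.09). Beyond this window, 6 places away, AT5G52810 had 110.8 in the mutant and 365.0 in the wild type (-1.59), and it is described with the resistance genes below.

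Around AT3G22240, the 3 measured neighbours all lie on one side. AT3G22250 had 45.2 in the mutant and 51.3 in the wild type (-0.14), AT3G22260 had 96.1 in the mutant and 98.3 in the wild type (-0.03), and AT3G22290 had 1084 in the mutant and 1119 in the wild type (-0.05). On the other side, 7 places away, lies PCC1, a gene named for its control by pathogens and the circadian clock. It was not analysed here, nor were the genes between it and AT3G22240.

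AT3G23550 is flanked by AT3G23540, with 282.0 in the mutant and 260.9 in the wild type (0.11), and by ALF5, another MATE carrier gene, which was not analysed here. AT3G23570, 2 places away, had 847.3 in the mutant and 917.6 in the wild type (-0.11). GRX480 had a single measured neighbour, AT1G28510, with 874.4 in the mutant and 954.0 in the wild type (-0.12).

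**Figure D3:**
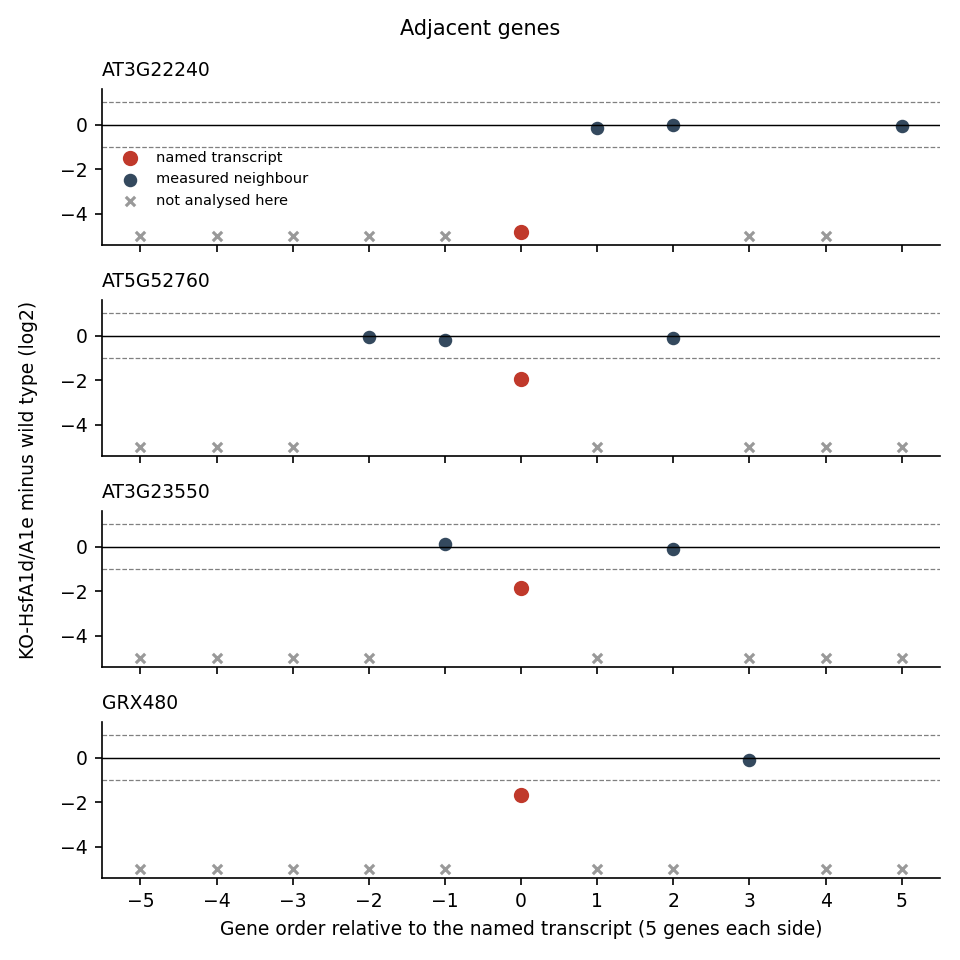
Difference between KO-HsfA1d/A1e and wild type (vertical axis, log2 units) for each of the 4 transcripts (red, position 0) and the 5 annotated genes on each side in gene order (horizontal axis); dark points are measured neighbours and grey crosses, drawn at the foot of each panel without a value, are genes not analysed here. The 9 measured neighbours lie between -0.20 and 0.11, within the dashed 2-fold lines.

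The measured relatives of GRX480 lay on both sides of 0. Of 20 other CC-type glutaredoxin genes listed, 13 were measured, 6 with the lower and 7 with the higher value in the mutant, and 0 differed by 2-fold. Both counts are near the background of 2.06% lower and 0.817% higher. The median difference of the 13 was 0.00, beside 0.04 over all singly named genes. AT5G18600, the brightest of them, had 4250 in the mutant and 3491 in the wild type (0.28), and AT1G06830 had 1356 in the mutant and 1659 in the wild type (-0.29). The extremes, named after their values were seen, were AT2G30540 with 318.0 in the mutant and 572.8 in the wild type (-0.82), and ROXY1, known for its role in petal development, with 105.0 in the mutant and 53.9 in the wild type (0.79). Over the 5 of the 13 past the expression filter, the median was -0.29. AT2G30540 is among these and passed only through the wild type, as the filter lies at an intensity of 332.0.

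Of 10 listed glutaredoxins of the other classes, 5 were measured, all past the filter, and their median was -0.05. The value in the mutant was lower for 4 and higher for 1, beside 44.6% lower among singly named genes. GRXC2 had 5359 in the mutant and 6169 in the wild type (-0.20), and AT5G20500 had 3726 in the mutant and 3844 in the wild type (-0.05).

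Other carriers of the MATE family lay on both sides of 0. Of 56 loci listed, 28 were measured, 16 with the lower and 12 with the higher value in the mutant, and the median was -0.03. On the log2(intensity + 16) scale, 1 of the 28 was at least 2-fold lower, beside 2.06% of singly named genes. This was AT1G71140, with 116.2 in the mutant and 255.6 in the wild type (-1.04). At least 2-fold higher were 2, beside 0.817% of singly named genes. They were AT2G04050 with 508.5 in the mutant and 243.0 in the wild type (1.02), and the dim AT3G03620 with 25.0 in the mutant and 2.46 in the wild type (1.15). With 64 added in place of 16, the count at least 2-fold lower was 0, and with 1 added it was 3.

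Few genes of salicylate signalling could be read beside GRX480. Of 31 listed genes for the synthesis, perception and transcriptional relay of salicylate, 3 were measured, 2 of them under the filter. Their median was -0.29. Each was lower in the mutant, beside 44.6% of singly named genes, and 0 were lower by 2-fold, beside 2.06%. With so few genes, a shift of the pathway was not tested. WRKY53, a transcription factor of defence and leaf senescence, had 276.7 in the mutant and 443.7 in the wild type (-0.65). It was the only one of the 3 past the filter, which lies at an intensity of 332.0, and passed only through the wild type. UGT74F1, a glucosyltransferase acting on salicylate, had 70.8 in the mutant and 90.5 in the wild type (-0.29), and SAG101, a partner of the immune regulator EDS1, named after its value was seen, had 54.0 in the mutant and 61.4 in the wild type (-0.14). The TGA factors, NPR1 and the enzymes of salicylate synthesis were not analysed here.

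Of 22 listed genes that respond to salicylate or act in systemic resistance, 5 were measured, and the median was -0.46. The value in the mutant was lower for 4 and higher for 1, beside 44.6% lower among singly named genes. At least 2-fold lower were 2 of the 5, both under the expression filter, where 3.18% of probe sets were lower by as much, beside 2.06% of singly named genes. AT5G52810 had 110.8 in the mutant and 365.0 in the wild type, a difference of -1.59 or 3.29-fold. UGT73B4, a UDP-glycosyltransferase, had 26.9 in the mutant and 71.2 in the wild type (-1.02). Its mutant intensity was under 31.9, the limit of the lowest 5% of probe sets on that array. Whether that value lay above background could not be decided. With 64 added in place of 16, only 1 of the 2 genes stayed at 2-fold. The 2 members past the filter, named after their values were seen, were AT5G55450, with 592.6 in the mutant and 686.5 in the wild type (-0.21), and HCT, an enzyme of phenylpropanoid synthesis, with 3802 in the mutant and 3447 in the wild type (0.14). Over these alone the median was -0.033. The marker genes PR1, PR2 and PR5 were not analysed here.

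GRX480 is also known to repress PDF1.2, a defensin gene induced by jasmonate and ethylene, when it is overproduced. Of 24 listed jasmonate and ethylene defence genes, 2 were measured, both defensins and both lower in the mutant by less than 2-fold. Of singly named genes, 44.6% were lower in the mutant and 2.06% at least 2-fold lower. PDF1.2 had 3298 in the mutant and 4301 in the wild type (-0.38), and PDF1.2b had 2711 in the mutant and 3135 in the wild type (-0.21). Their coding sequences are similar, so signal of one on the probes of the other is uncertain.

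**Figure D4:**
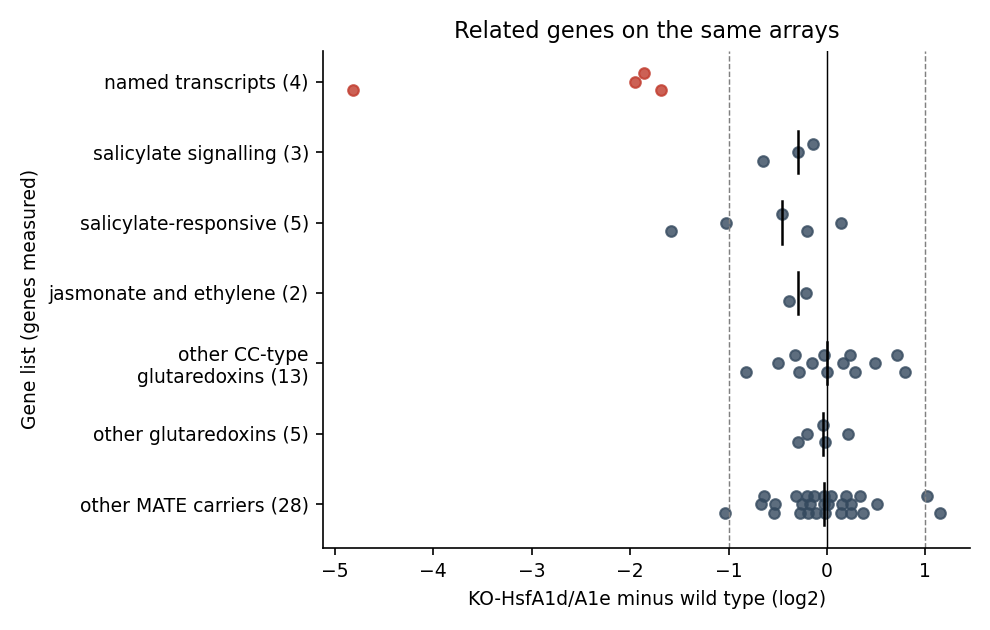
Difference between KO-HsfA1d/A1e and wild type (horizontal axis, log2 units), 1 point per measured gene, for the 4 transcripts in red at the top and 6 lists of related genes below, with the number measured in parentheses and a vertical bar at each list's median. Dashed lines mark 2-fold. The 13 other CC-type glutaredoxins spread from -0.82 to 0.79 around a median of 0.00. The salicylate-responsive list has 2 of 5 genes beyond 2-fold on the lower side, and with 64 added 1. Both are under the expression filter, where 3.18% of probe sets were lower by as much.

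The genes most like each transcript were sought as those with the smallest Euclidean distance in log2(intensity + 16) over the 2 arrays. Brightness also depends on a gene's probes, so likeness over 2 arrays describes values and no more. Nearest to AT3G22240 were AT1G53540, a cytosolic small heat shock protein of class I, with 317.5 in the mutant and 4984 in the wild type (-3.91, distance 1.12), and AT5G51440, a mitochondrial small heat shock protein, with 464.9 in the mutant and 5057 in the wild type (-3.40, distance 1.14). These distances were the widest, as no singly named gene had values close to those of AT3G22240.

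Nearest to AT5G52760 were AT2G32160, with 149.8 in the mutant and 594.5 in the wild type (-1.88, distance 0.21), and AT4G23493, with 136.3 in the mutant and 768.5 in the wild type (-2.36, distance 0.30). Nearest to AT3G23550 were AT5G52760 itself, at a distance of 0.49, and AT2G36220, with 250.2 in the mutant and 595.4 in the wild type (-1.20, distance 0.51). GRX480 had the closest matches, AT1G10340 with 42.1 in the mutant and 182.9 in the wild type (-1.78, distance 0.08), and AT1G44414 with 45.7 in the mutant and 166.5 in the wild type (-1.57, distance 0.09). The pair AT5G52760 and AT3G23550 was the only one in which one of the 4 transcripts was among the 2 nearest of another.

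Scaling of the arrays and the added constant left all 4 differences on the lower side of 2-fold. Over median centring, quantile normalization, loess and added constants of 1, 16 and 64, the difference of AT3G22240 ran from -4.87 to -4.65, that of AT5G52760 from -2.04 to -1.70 and that of AT3G23550 from -1.93 to -1.67. GRX480 had the widest range, from -1.99 with 1 added to -1.15 with 64 added. AT3G22240 had the lowest difference of the 4 under each of these settings. With 1 added, the difference of GRX480 was larger in size than that of AT3G23550, -1.93, and under the other settings it was the smallest of the 4.

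**Figure D5:**
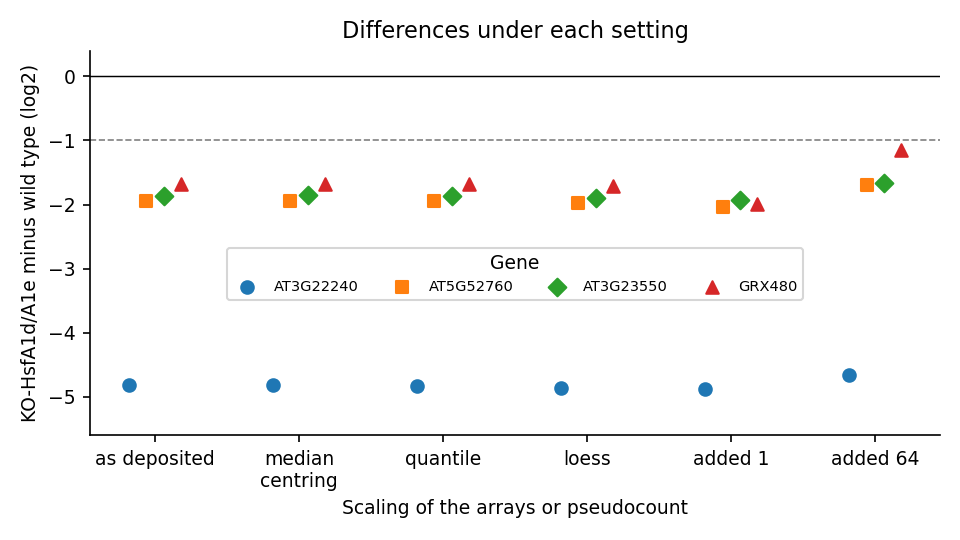
Difference between KO-HsfA1d/A1e and wild type (vertical axis, log2 units) of each of the 4 transcripts under 6 settings (horizontal axis): as deposited with 16 added, 3 scalings, and added constants of 1 and 64. All points lie below the dashed 2-fold line at -1; GRX480 moves most, between -1.99 and -1.15.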

How the data were processed

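Total RNA of each genotype was made into biotinylated cRNA and hybridised to 1 Affymetrix array, per the labels' protocols. The files hold deposited intensities on a linear scale, with a single value for each probe set and array; how the authors summarized, background-corrected and scaled them is not given in the sources used here. Of 16541 probe sets, 9139 had 1 gene symbol in GEO's platform annotation, 340 had several and the rest none; 9095 matched the TAIR10.1 gene table by Entrez identifier. A gene is represented by its singly naming probe set with the highest mean. No genome build is stated for the values, so no coordinates are given.

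Differences, counts and medians were computed in Python 3.11.15 with pandas 2.3.3 and statsmodels 0.14.6. Simulated data were used to try only the differences and the 2-fold calls past the expression filter. Their noise was set below the scatter between probe sets of a gene, and no list, median or dim probe set was tried. The number of arrays limits precision. Members and lists were chosen with earlier results of these data known, and the MATE list was written from general knowledge after values were seen. Besides the members, the named genes are the 2 nearest patterns, measured neighbours within 5 places, and of each list up to 4 genes at least 2-fold different or else the 2 brightest; others are marked. Families were also sought by words in the gene table, which matched 1 PCC1-like gene, 6 heavy-metal-associated genes and 0 MATE genes, none of them measured, and 8 glutaredoxins, 2 of them measured and already listed (GRXC1 and GRXC2). This search missed the measured MATE carriers above. It can have missed measured genes of the other families too, among them relatives of AT5G52760.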

Additional observations from a re-analysis of the deposited data

How the results depend on the processing

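No paired analysis was possible because there is a single array for each genotype, so no replicate could be left out either. Values were called moved where they shifted by more than 0.20 log2 units, the scatter between probe sets of a gene. Counts were called moved where they shifted by more than 1.5 times. By this rule 20 values and counts moved and 114 did not, nor did 5 further counts of the genome neighbours. With 64 added, AT5G52760 was at -1.70 and GRX480 at -1.15, the salicylate-responsive list had 1 gene at least 2-fold lower and the MATE list 0. With 1 added, GRX480 was at -1.99 and the MATE list had 3. Counting only genes past the expression filter gave medians of -0.65 for salicylate signalling, -0.033 for the salicylate-responsive list, with 0 genes at least 2-fold lower, and -0.29 for the CC-type glutaredoxins, and 0 genes at least 2-fold lower in the MATE list. The medians rest on 1, 2 and 5 genes in that order, and the MATE count on 11. WRKY53 of salicylate signalling and AT2G30540 of the CC-type glutaredoxins passed the filter only through the wild type. The MATE carrier AT2G04050 passed only through the mutant. The genes left out are also the dim ones, and the part of number and of brightness was not tested. The 114 lower and 10 higher probe sets past the filter numbered 276 and 129 at a threshold of 1.5-fold and 51 and 2 at one of 3-fold. Dropping the filter gave 377 and 127, and raising it to percentile 75 gave 65 and 3. Of the members, 3 passed the expression filter, AT5G52760 and AT3G23550 only through the wild type, and 1, AT3G22240, passed the filter at percentile 75. It passed that stricter filter only through the wild type, with a log2 value of 8.58 in the mutant and 13.40 in the wild type. Unknown background limits dim probe sets, among them GRX480 and UGT73B4 in the mutant.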

Other observations

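Single genes outside the lists, picked after their values were seen because they were lower, stand for no group and show no theme. Past the expression filter, 1.38% of probe sets were at least 2-fold lower. The 3 salicylate and jasmonate lists held 1, 2 and 2 genes past the filter, and none was lower by as much. These are too few genes to set beside that share or beside the genes named next. RING1, a RING-type ubiquitin ligase of cell death signalling, had 404.7 in the mutant and 1092 in the wild type, a difference of -1.40. ECS1, named in connection with resistance to Xanthomonas, had 7167 in the mutant and 15143 in the wild type (-1.08). CHI (AT2G43570), annotated as a putative chitinase, had 302.1 in the mutant and 658.4 in the wild type (-1.08), and passed the filter only through the wild type.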
